A study of Mus musculus with 2 samples.

Results

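The miR-15 family and its miR-503 relative are 8 microRNA (miRNA) genes in 4 pairs of neighbours, best known as brakes on the cell cycle. They were chosen by name, as Mir15a, Mir15b, Mir16-1, Mir16-2, Mir195a (Mir195), Mir322, Mir497 and Mir503, and are 8 of the 1974 miRNA genes counted. Of these, 7 have an entry of their own in the count tables, and Mir497 was read from the opposite-strand counts of Mir497b, the annotated gene that covers it on the other strand. Small RNAs under 30 nucleotides were sequenced from hindbrains of B6NCrl mice (strain) taken at birth, age 0 day. The series is 1 untreated group of 2 libraries, each made from the single hindbrain of a separate animal, pup 3 (biological replicate 2) and pup 1 (biological replicate 1). The labels name no mutant allele or agent, list 1 donor identifier for the 2 animals, and leave sex uncollected. With 1 group there was no contrast between conditions, so levels within the family, and differences between the pair of libraries, are what these data can give.

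A miRNA is cut from a hairpin precursor and guides Argonaute proteins to messenger RNAs, mostly through its seed, bases 2 to 8 from the 5′ end. The miR-15 and miR-16 seed pairs with transcripts of D-type and E-type cyclins, of cyclin-dependent kinases that drive entry into DNA synthesis, and of the survival protein Bcl2. The newborn hindbrain holds both postmitotic neurons of the brainstem and dividing granule neuron progenitors of the cerebellum. The neighbours of a pair can be cut from a single primary transcript, so their ratio compares precursors that can start out together and then differ in processing, stability and capture.

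The 5p arms are shown first because the family is defined by them. Sequences are from RefSeq (GRCm38.p6), 5′ to 3′, with the seed in capitals, and all 8 genes had a match there.
miR-322-5p: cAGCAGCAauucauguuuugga
miR-15a-5p: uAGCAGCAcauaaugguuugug
miR-15b-5p: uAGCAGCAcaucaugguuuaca
miR-195a-5p: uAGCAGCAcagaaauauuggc
miR-16-5p: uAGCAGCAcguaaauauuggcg
miR-497a-5p: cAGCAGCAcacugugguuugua
miR-503-5p: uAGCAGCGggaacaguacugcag
The seed is AGCAGCA in 7 genes and AGCAGCG in Mir503. Counted from 1 at the 5′ end, miR-503-5p differs from miR-322-5p within the first 8 bases by C1U and A8G. Mir16-1 and Mir16-2 give the same 22-base miR-16-5p. Beyond base 8 the arms diverge. Over the 13 bases from base 9 to base 21, compared without gaps, the pairs other than Mir16-1 with Mir16-2 shared between 3 and 11 bases. The most alike of these were miR-16-5p and miR-195a-5p, identical at 19 of 21 bases, and miR-15a-5p and miR-15b-5p at 18 of 21. The least alike were miR-497a-5p and miR-503-5p, at 9 of 21.

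By position the pairs lie on 4 chromosomes (GENCODE M21, GRCm38, the assembly of mm10). Mir15a (ENSMUSG00000093007.1, chr14:61632027-61632110, minus strand) lies in an intron of Dleu2, a noncoding gene whose human counterpart is often deleted in chronic lymphocytic leukaemia. Mir16-1 (ENSMUSG00000092995.1, chr14:61631880-61631972, minus strand) follows 54 bases downstream and overlaps an exon of Dleu2. Mir15b (ENSMUSG00000065580, chr3:69009772-69009835, plus strand) and Mir16-2 (ENSMUSG00000065606.1, chr3:69009902-69009996, plus strand), 66 bases apart, lie in an intron of Smc4, which encodes a condensin subunit needed to compact chromosomes at mitosis. Mir497 (ENSMUSG00000105220.1, chr11:70234717-70234800, plus strand) and Mir195a (ENSMUSG00000065411.2, chr11:70235042-70235135, plus strand) are 241 bases apart, and the annotation gives them no host. Mir322 (ENSMUSG00000065418.1, chrX:53054255-53054349, minus strand) and Mir503 (ENSMUSG00000076122.1, chrX:53053984-53054054, minus strand) are 200 bases apart, likewise without one.

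The tables held 6238680 own-strand miRNA gene counts in pup 3 and 4906127 in pup 1. Levels are CPM, a gene's own-strand counts per 1000000 such counts of its library, with mean ± SD over n = 2 pups. A read covers a whole small RNA, so CPM was not divided by length, but sequences differ in how well they are captured. As a check of the tissue label, the Hox-linked list summed to 34978 CPM in pup 3, against 52557 CPM in pup 1, and Mir137, a neuronal miRNA, had 11340 CPM in pup 3, against 11363 CPM in pup 1. Of the 8 neural marker genes, 7 had an entry and 4 reached 2 CPM in both pups. The 3 copies of Mir124a were at or under 14.9 CPM in each library, and reads that fit several copies are given to none. Muscle markers were at 0 counts in both pups for 3 of 4 measured genes, and Mir206 stood at 157 CPM in pup 3, against 172 CPM in pup 1. The 3 genes at 0, Mir1a-1, Mir133a-1 and Mir133a-2, are named as numbered copies too. Reads that fit several copies would be missing from them, so their 0 counts do not show that muscle RNA was absent.

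All 8 genes were detected in the newborn hindbrain, at 2 CPM or more in both pups, a level that 20.7% of all 1974 genes reached. Together their counts equalled 1.93% of own-strand miRNA counts in pup 3 (exact 95% interval 1.92 to 1.94). In pup 1 they equalled 1.89% (1.88 to 1.90), for a mean of 1.91% ± 0.0240 (SD, n = 2). Mir497, read from opposite-strand counts, is in these sums but not in the totals they are set against. Without it the share was 1.80% in pup 3 and 1.78% in pup 1. Intervals cover counting error only. Reads confined to miR-16-5p fit both miR-16 genes and would be in neither count, so these are shares of the counted reads and leave out an unknown part of miR-16. Of these counted reads, Mir16-1 and Mir16-2 summed to 1563 CPM in pup 3, against 3157 CPM in pup 1, and the other 6 genes to 17702 CPM in pup 3, against 15769 CPM in pup 1. The median of the members' mean levels was 1547 CPM, against 178 CPM over the 408 detected genes. A mean of 1000 CPM or more was reached by 5 members and by 106 of the 408.

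By counted reads, Mir322 had the highest level. The miRNA it encodes, called miR-424 in humans, promotes cell-cycle exit in differentiating mouse muscle cells by acting on the phosphatase Cdc25a. It had 9509 CPM in pup 3, against 7367 CPM in pup 1, averaging 8438 ± 1515 CPM, and ranked 28 among all genes counted. Mir322 alone was 49.4% of the family's counts in pup 3 and 38.9% in pup 1. Mir15a came next, at 3964 CPM in pup 3, against 4144 CPM in pup 1. Mir195a, a miRNA known in mouse heart for restraining the division of muscle cells after birth, had 2090 CPM in pup 3, against 2206 CPM in pup 1. Neither gene differed much between the libraries, and their ranges did not overlap with each other or with that of Mir322.

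Mir16-1 had 1321 CPM in pup 3, against 2489 CPM in pup 1. Its range spans that of Mir195a, so these neighbours in the order cannot be ranked. Mir497, the partner of Mir195a, had 1257 CPM in pup 3, against 1121 CPM in pup 1. Mir15b had 752 CPM in pup 3, against 773 CPM in pup 1, the smallest spread between pups of the 8 genes in CPM. Mir16-2 was at 241 CPM in pup 3, against 668 CPM in pup 1. Mir503 was lowest, at 131 CPM in pup 3, against 158 CPM in pup 1. Apart from Mir195a and Mir16-1, the ranges of neighbours in this order of counted reads did not overlap. Some gaps were narrow, such as that between the 1321 CPM of Mir16-1 in pup 3 and the 1257 CPM of Mir497 in the same pup.

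**Figure D1:**
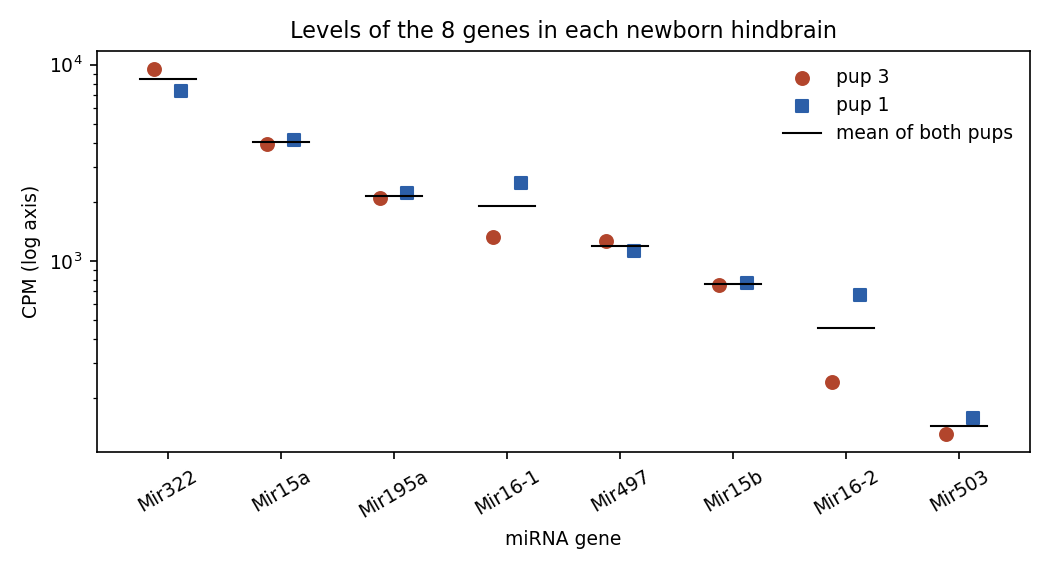
Level of each of the 8 genes in CPM (vertical log axis), with circles for pup 3, squares for pup 1 and a bar for their mean, ordered by mean. On this log axis Mir16-1 and Mir16-2 show the widest gaps between pups, with pup 3 at 1321 and 241 CPM and pup 1 at 2489 and 668 CPM.

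Genes whose 5p arm has the seed AGCAGCA held nearly all of the family's counted reads. Counts of these 7 genes, Mir497 included, equalled 1.91% of own-strand miRNA counts in pup 3 and 1.88% in pup 1. Arms are not told apart, so these counts can include 3p arms, which have other seeds. Reads confined to miR-16-5p would be missing from them, so the share of reads that carry AGCAGCA is not known. RefSeq lists 11 miRNA genes with this seed, and the other 4 were at or near 0.
miR-195b: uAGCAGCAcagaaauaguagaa
miR-6342: cAGCAGCAaucuggucuuugag
miR-6353: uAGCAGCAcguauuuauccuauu
miR-6419: cAGCAGCAaucugacacaugga
These are shown because they carry the same seed. Mir6342, Mir6353 and Mir6419 had 0 counts in both libraries, which allows up to 0.481 CPM in pup 3, against 0.611 CPM in pup 1. Mir195b, on chromosome 2, had 0 counts in pup 3 and 1 count in pup 1. Its hairpin shares a 16-base stretch with that of Mir195a.

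Reading Mir497 needs the other strand. The Mir497b entry (ENSMUSG00000070109.2, chr11:70234692-70234816, minus strand) contains all of the Mir497 precursor, and it had 1 own-strand count in each pup but 7841 opposite-strand counts in pup 3 and 5499 in pup 1. The annotated miRNAs of this locus are printed for comparison.
miR-497a-5p: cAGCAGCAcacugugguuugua
miR-497a-3p: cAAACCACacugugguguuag
miR-497b: cACCACAGugugguuuggacgugg
The annotated miR-497b has a seed unrelated to the family and lies over 17 bases of miR-497a-3p, on the other strand, and over 0 bases of miR-497a-5p. The other 7 genes had 0 opposite-strand counts in both pups.

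Ratios within a pair do not depend on how the libraries are scaled. The ratio of Mir15a to Mir16-1 counts was 3.00 in pup 3 (exact 95% interval 2.93 to 3.08) and 1.67 in pup 1 (1.63 to 1.70). That of Mir15b to Mir16-2 was 3.11 in pup 3 (2.94 to 3.30) and 1.16 in pup 1 (1.10 to 1.21). Both ratios were larger in pup 3, beyond counting error. They compare counted reads, which for the miR-16 genes lack those confined to miR-16-5p, so they do not rank a miR-15 gene against its miR-16 partner. The ratio of Mir15a to Mir15b was 5.27 in pup 3 (5.11 to 5.44) and 5.36 in pup 1 (5.18 to 5.55), intervals that overlap. A difference between pups in the proportion of the Dleu2 and Smc4 copies of miR-15 was not detectable at this depth.

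Mir195a exceeded Mir497 by 1.66 in pup 3 (1.62 to 1.71) and 1.97 in pup 1 (1.91 to 2.03). Their summed level was 3347 CPM in pup 3, against 3327 CPM in pup 1. Of the pair ratios, the largest in counted reads was on chromosome X. There Mir322 exceeded Mir503 by 72.4 in pup 3 (67.6 to 77.7) and 46.8 in pup 1 (43.5 to 50.3). Arms are not told apart in the tables, so none of these ratios compares a 5p arm with another.

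**Figure D2:**
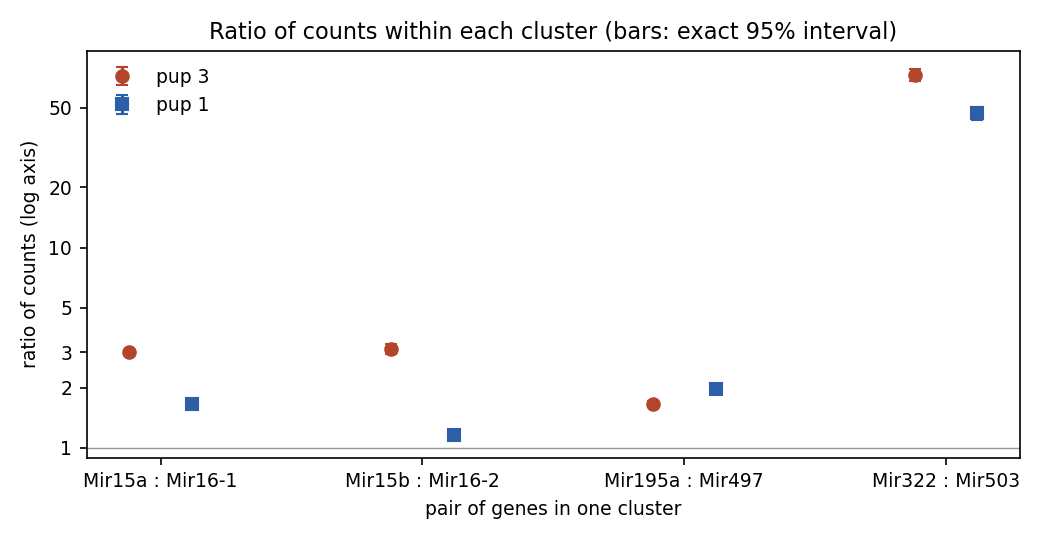
Ratio of counts of the genes of each pair (vertical log axis), with circles for pup 3, squares for pup 1 and bars for exact 95% intervals of counting error. Mir15a to Mir16-1 stands at 3.00 in pup 3 and 1.67 in pup 1, Mir15b to Mir16-2 at 3.11 in pup 3 and 1.16 in pup 1, and Mir322 to Mir503 at 72.4 in pup 3 and 46.8 in pup 1.

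Between the libraries, the miR-16 genes were the members that differed most, and both were lower in pup 3. Differences are log2 of pup 3 minus pup 1 on TMM effective library sizes (edgeR's scaling of libraries) with a pseudocount of 1 CPM, and the SE is counting error. Mir16-2 differed by -1.33 (SE 0.045) and was the 1 member called, past 2-fold and an adjusted p under 0.05 (exact binomial test, Benjamini-Hochberg adjusted over 509 genes, adjusted p = 4.29e-209). Of all tested genes, 6.68% were called, 5.70% as lower in pup 3 and 0.982% as higher. Mir16-1 differed by -0.78 (SE 0.021), past the adjusted p but short of 2-fold. The test compares these 2 libraries and covers counting error, not the spread between animals or preparations.

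The other 6 members differed less. Mir322 was higher in pup 3 by 0.50 (SE 0.0096) and Mir497 by 0.30 (SE 0.025), both past the adjusted p but not 2-fold. Mir15a differed by 0.071 (SE 0.014), Mir15b by 0.094 (SE 0.032) and Mir195a by 0.056 (SE 0.019), past the adjusted p as higher in pup 3 with TMM, but on library totals these 3 were lower in pup 3, by -0.064, -0.041 and -0.078. Mir503 differed by -0.13 (SE 0.072) and missed the threshold (exact binomial test, adjusted p = 0.143). In all, at any fold, 5 members were higher and 2 lower in pup 3 past the adjusted p, in a comparison where 48.3% of tested genes passed, 24.0% higher and 24.4% lower. On library totals the tally was 2 higher and 5 lower, and Mir503 then passed, at -0.26 (exact binomial test, adjusted p = 0.000773). The median difference was 0.064 over the members and -0.020 over all 509 tested genes. The median size of a difference, whatever its sign, was 0.21 for the members and 0.28 for detected genes, whose 90th percentile was 0.81. Mir16-2 lay beyond that value and Mir16-1 just short of it.

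**Figure D3:**
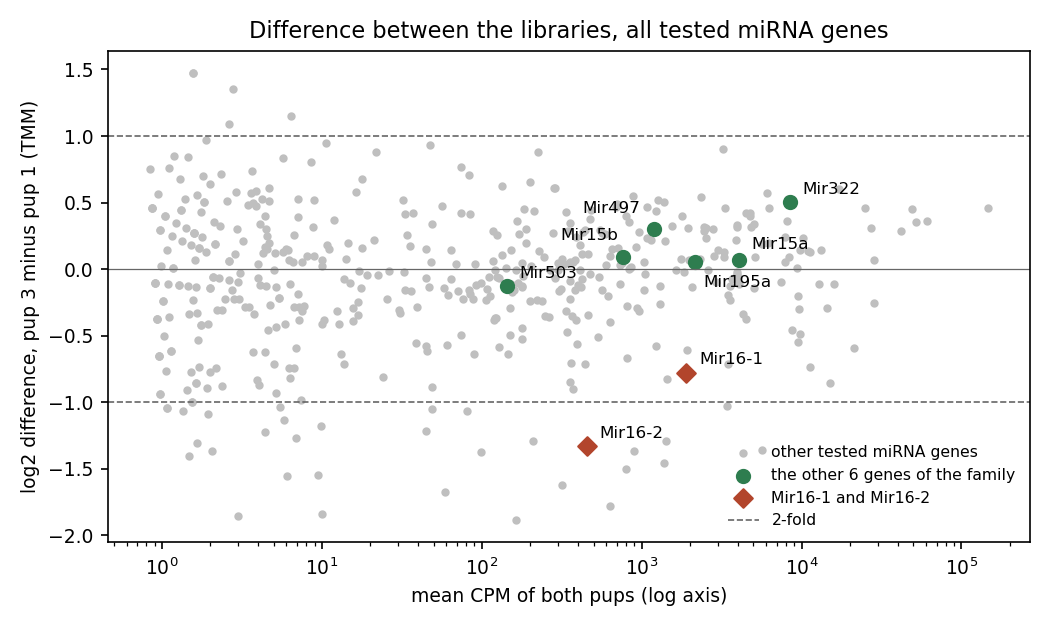
Log2 difference of pup 3 minus pup 1 on TMM scaling (vertical axis) against mean CPM (horizontal log axis) for 509 tested genes, with 2-fold as dashed lines. Mir16-2 at -1.33 and Mir16-1 at -0.78 lie below the other 6 genes of the family, which lie between -0.13 and 0.50.

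Among the members, the miR-16 genes were also the pair with a whole mature sequence in common, by RefSeq hairpins. Their hairpins are printed with the longest stretch they share in capitals.
Mir16-1: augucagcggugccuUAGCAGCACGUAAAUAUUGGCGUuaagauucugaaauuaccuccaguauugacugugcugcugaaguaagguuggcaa
Mir16-2: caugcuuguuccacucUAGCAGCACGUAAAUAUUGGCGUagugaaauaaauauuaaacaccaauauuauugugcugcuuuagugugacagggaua
That stretch is 23 bases long, bases 16 to 38 of the Mir16-1 hairpin and 17 to 39 of the Mir16-2 hairpin, and holds the whole miR-16-5p. A read within it fits both genes equally, and the tables set reads at several genomic places apart, 39.4% of reads in pup 3 and 37.9% in pup 1. Reads confined to the stretch would be among these and in neither count, which leaves reads that reach past it and reads of the 3p arms. For the other 6 members the longest stretch shared with the RefSeq hairpin of another gene elsewhere was 10 to 16 bases (for Mir15a, of its mature arms). Mir15a had no hairpin to search against. Its arms share 11 bases with the Mir15b hairpin, longer than the 10 found for Mir15b.

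Among the tested genes, 51 had a whole mature sequence in another gene's hairpin, of which 11 were called lower in pup 3 and 0 higher. Of the 409 without one found, 14 were called lower and 4 higher, and of the 49 with no RefSeq sequence matched, 4 were called lower and 1 higher. The part of this in the Mir16-1 and Mir16-2 difference was not tested. Only RefSeq hairpins were searched, so the 409 can include genes that have a copy. Mir125b-1 and Mirlet7a-2 are among the 409, while Mir125b-2 and Mirlet7a-1, named as their copies, are among the 51. Markers of blood did not move as one. The 3 erythroid markers, all detected, summed to 308 CPM in pup 3, against 498 CPM in pup 1. That sum follows Mir451a, a miRNA of red cells, with 258 CPM in pup 3, against 461 CPM in pup 1. Mir144 had 27.7 CPM in pup 3, against 16.1 CPM in pup 1, and Mir486 had 22.0 CPM in pup 3, against 20.6 CPM in pup 1. Past the adjusted p, 1 of the 3 was lower and 1 higher in pup 3. Of the leukocyte markers, both detected, Mir150 had 300.2 CPM in pup 3, against 488 CPM in pup 1, and Mir223 had 196 CPM in pup 3, against 212 CPM in pup 1. Their part in the Mir16-1 and Mir16-2 difference was not tested either, and in whole tissue fewer cells of a type and less RNA per cell cannot be told apart.

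On chromosome X, Mir322 and Mir503 head a run of 7 miRNA genes on the same strand within 6353 bases. All 5 downstream neighbours, Mir351, Mir542, Mir450-2, Mir450-1 and Mir450b, were detected, at far lower levels than Mir322. Mir351, a relative of miR-125, had 591 CPM in pup 3, against 1031 CPM in pup 1. It was lower in pup 3 by -0.67 (SE 0.031), the direction opposite to Mir322 (exact binomial test, adjusted p = 2.36e-102), short of 2-fold. The ratio of Mir322 to Mir351 was 16.1 in pup 3 (exact 95% interval 15.6 to 16.7) and 7.14 in pup 1 (6.94 to 7.36). Mir542 had 236 CPM in pup 3, against 191 CPM in pup 1, and Mir450b had 62.7 CPM in pup 3, against 49.3 CPM in pup 1. Both were higher in pup 3 past the adjusted p, by 0.44 (SE 0.060) and 0.47 (SE 0.12). Mir450-2 and Mir450-1 were under 5 CPM in both pups, did not pass the adjusted p, and share a 25-base stretch, so their reads can fit both. Of the 7 genes, 3 were thus higher and 1 lower in pup 3, none by 2-fold, and 3 did not pass, of which Mir503 passed as lower on library totals.

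**Figure D4:**
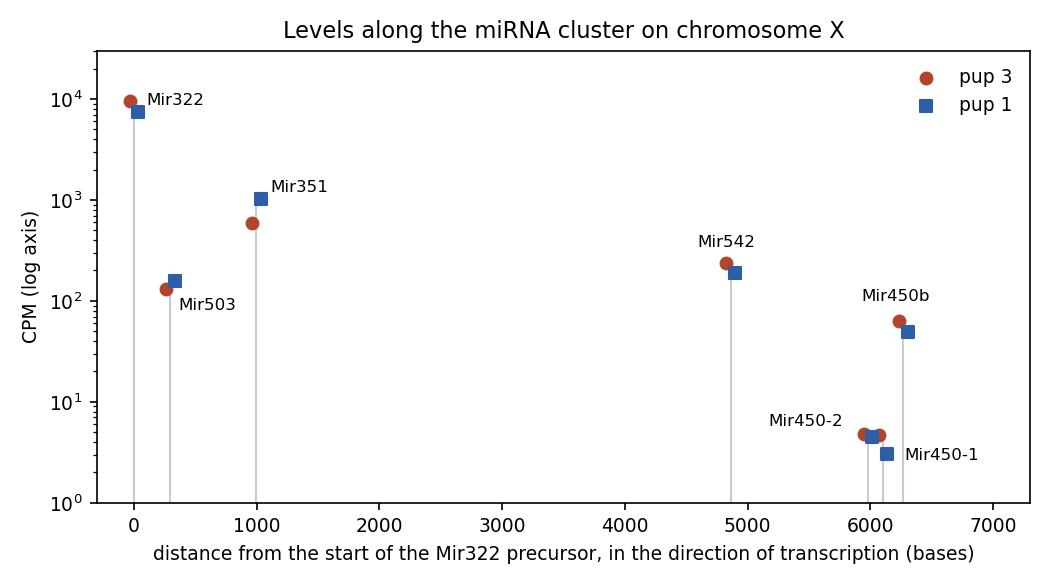
Level in CPM (vertical log axis) of the 7 miRNA genes of the chromosome X cluster against distance in bases from the start of the Mir322 precursor along transcription, with circles for pup 3 and squares for pup 1. Mir322 stands at 9509 CPM in pup 3, against 7367 CPM in pup 1, and Mir351 at 591 CPM in pup 3, against 1031 CPM in pup 1.

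Set beside a list of genes linked to proliferation, the family held a smaller share of the counted reads. The 15 genes of the miR-17-92 cluster and its paralogs, which favour entry into the cell cycle, made up 2.57% of counts in pup 3 and 2.96% in pup 1, led by Mir17 and Mir93. That was 1.33 times the family's counts in pup 3 and 1.57 times in pup 1. The difference was not tested. Reads confined to miR-16-5p would be missing from the family's counts, so the ratio does not rank the family against the list. In the list, Mir92-1, Mir92-2, Mir19b-1 and Mir19b-2 likewise have a whole mature sequence in another hairpin. Of the 15, 14 were detected and 1 was called lower in pup 3, Mir19b-2, at 0.641 CPM in pup 3, against 5.30 CPM in pup 1. The 3 Mir34 genes, whose miRNAs are induced by p53 and also arrest the cell cycle, summed to 4300 CPM in pup 3, against 4862 CPM in pup 1, below Mir322 alone. By the rule used, the 3 genes closest to Mir322 in log2(CPM + 1) over the 2 libraries were Mir143, Mir411 and Mir369, at Euclidean distances of 0.054, 0.13 and 0.23. Mir143 had 9362 CPM in pup 3, against 7121 CPM in pup 1. With 2 libraries such likeness describes level alone.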

How the data were processed

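Small RNA of 2 newborn mouse hindbrains was measured by microRNA-seq, 1 library per pup. The authors deposited whole-number read counts per miRNA gene for any strand, the own strand and the opposite strand, raw and per library. Per the file descriptions deposited beside them, reads were placed on mm10 with annotation M4. Which aligner and counter were used is not given in the sources used here. Rows that name no gene stayed out of totals and tests. Reads at several places were 39.4% of the table in pup 3 and 37.9% in pup 1, and unmapped reads 13.9% in pup 3 and 17.7% in pup 1.

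Own-strand counts were used. Of 1973 IDs, 1894 matched GENCODE M21 without version, and Mir497 was added as a further entry, outside the totals. CPM, TMM effective sizes (edgeR 4.0.16, ratio 1.16 of pup 3 over pup 1) and exact binomial tests (SciPy 1.17.1, two-sided, 10 or more counts in sum, Benjamini-Hochberg over the table) were computed. Calls needed an adjusted p under 0.05 and 2-fold. DESeq2 1.42.0 size factors were an alternative. edgeR's quasi-likelihood test could not be fitted between single libraries. The calling step was tested on simulated data with counting error only, where 0.316% of unchanged genes were called. That does not give the rate of false calls at the spread between these libraries. The libraries differed by more than sampling noise, with a chi-square of 434 per tested gene, so they are not copies of 1 library. That they are separate animals rests on the labels.

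The text names the 8 members, genes of the same seed, chromosome X neighbours, the cell-cycle and marker lists, and the 3 genes most like the highest member. Members and lists were chosen with earlier results of these data known. Genes in the closing section were named after their values were seen.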

Additional observations from a re-analysis of the deposited data

How the results depend on the processing

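Mir16-2 was the 1 member called under all of the scalings, filters, strands and pseudocounts tried. With DESeq2 size factors, a pseudocount of 5 CPM, no filter, or reads on any strand, the direction of every member measured held. On library totals, where the median of all tested genes moved by -0.13, Mir15a, Mir15b and Mir195a changed sign, to -0.064, -0.041 and -0.078, and Mir503 passed the adjusted p, so that 2 members were higher and 5 lower, against 5 higher and 2 lower with TMM. Relative to that median the members' median was 0.078, and 0.083 with TMM. The median level of the members, 1547 CPM, became 646 CPM when all reads in the table were the denominator and 1845 CPM on any strand without Mir497. Their summed share, 1.91%, became 0.803% of all reads, 1.73% on any strand without Mir497 and 1.79% without Mir497. The larger denominator and the missing gene make these shifts by construction. The 34 calls among all genes became 18 when 100 or more counts were required (318 genes tested) and 17 with a pseudocount of 5 CPM. Single pups gave values within 1 SD of the mean, which 2 samples always do, and no comparison remains with 1 pup. No paired analysis was possible because the series has 1 group. Depth limits the genes near 0, not the members, whose lowest count was 773.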

Other observations

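Of the 51 tested genes with a whole mature sequence in another hairpin, 11 were called lower in pup 3, Mir16-2 among them, and 5 others are given here because they were called. At any fold, 24 of the 51 were lower and 3 higher in pup 3 past the adjusted p, the highest by level of these 3 being Mir181a-1, with 5213 CPM in pup 3, against 4263 CPM in pup 1. Mir181b-2 had 267 CPM in pup 3, against 1008 CPM in pup 1. Mirlet7c-2 had 390 CPM in pup 3, against 1215 CPM in pup 1, and Mirlet7a-1 had 113 CPM in pup 3, against 307 CPM in pup 1. Mir138-1 had 772 CPM in pup 3, against 2078 CPM in pup 1, and its copy Mir138-2 had 469 CPM in pup 3, against 1332 CPM in pup 1. Among genes that averaged 100 CPM or more, 6 of 28 with a whole mature sequence in another hairpin were called lower in pup 3. Of those without one found among RefSeq hairpins, 5 of 191 were called lower, and 0 of either were called higher.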
